A study of Capra hircus with 6 samples.

Results

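The actin cytoskeleton and contractile genes were taken as a list of 49 genes chosen by name. It held 4 actins, 10 proteins that bind the thin filament, 7 myosin chains and their kinase, 12 crosslinkers and adhesion proteins, 7 proteins of actin assembly and turnover, 6 genes of SRF and contractility signaling, and 3 genes of the intermediate filament and calcium binding proteins. Of the 49 genes, 35 were listed by name among the 27271 genes of the files, and 33 had enough counts to be tested among 6574 tested genes. MYL12B had counts of 0, 0 and 2 in the negative control libraries and of 6, 10 and 6 in the silenced ones, and S100A6, which binds calcium, had a count of 0 in all 6 libraries, so neither was tested. A count of 0 allows up to 3 counts, by counting error alone and if the reads were counted independently of each other. The other 14 genes (TAGLN2, CNN2, TPM2, TPM4, MYL6, MYL12A, ACTN4, PFN1, CFL1, ARPC2, ARPC3, ARPC5, CAPZB and ANXA2) were not analysed here by name.

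Actin filaments and the myosin motors that slide along them give a cell its shape, its tension and its grip on the matrix. The kinases ROCK1 and ROCK2 promote the building of contractile bundles, the stress fibres. Free actin monomers hold the coactivators MRTFA and MRTFB in the cytoplasm, and when monomers are used up in filaments the coactivators enter the nucleus and join SRF, which drives the genes of actin itself and of many contractile proteins. In fat precursors this axis is known for opposing adipogenesis, and stress fibres are lost as precursor cells round up and fill with lipid.

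The cells were goat intramuscular preadipocytes, the fat precursors that lie within muscle, isolated by the study from the longissimus dorsi of Jianzhou goats 3 days old. The NC groups (n = 3, genotype WT in the labels) received a negative control siRNA. The Si-LIPG groups (n = 3, labelled as LIPG knock down) received an siRNA against LIPG, which encodes the endothelial lipase. Both groups went through adipose differentiation with 50 μmol/L oleic acid, and RNA was taken 48 h after induction. The study calls its replicates biological. The sources used here do not say whether the 3 libraries of a group came from separate animals or separate cultures of the same cells, so the p values measure only the spread between these libraries.

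The reads counted on genes differed in the same direction as the groups, and the total reads did not. Total reads were 42581107 to 52638817 in the NC libraries and 36451898 to 48031507 in the Si-LIPG libraries. Reads counted on genes were 524776 to 703680 and 864882 to 1051230, or 0.997% to 1.53% and 1.8% to 2.88% of all reads, while 91.6% to 93.7% fell on no annotated feature and 0.909% to 1.22% were not aligned. NC 1 stood apart, with the lowest share and a TMM factor (the scaling that edgeR sets from the bulk of genes) of 0.601 against 0.927 to 1.37 in the other 5 libraries. Counts of LIPG itself were 0, 2 and 0 in the NC libraries against 0, 2 and 2 in the Si-LIPG libraries, all under the limit for a count of 0, so its silencing could not be seen and gave no check of the labels. The library protocol keeps the strand of each read, but the strand setting of the counting was not given in the sources used here. ND6, which lies on the opposite strand from most mitochondrial genes, had FPKM values 22.6 to 99.3 times the median of 12 other mitochondrial genes, lower in each Si-LIPG library than in each NC library. Whether the counting took the strand of the genes or the opposite strand could not be told from the sources used here, so every count, CPM and FPKM given here may be of reads from the strand opposite to the gene, and none can be read with certainty as the level of its transcript. The part of this in the results on the actin genes was not tested. Of 31 listed genes placed on a chromosome of the RefSeq annotation of goat assembly ARS1.2, 6 overlapped another gene (ACTG2, TPM1, MYLK, LIMA1, CFL2 and ROCK1), and their reads could not be told apart from those of the overlapping gene.

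The label of the cells was set against marker genes. Of 8 markers of preadipocytes, 7 were listed, among them PDGFRA, NT5E and ENG with counts in all libraries, whereas DLK1 was at 0 in all. They summed to a CPM of 1234 to 1654 in the NC libraries and 964.2 to 1232 in the Si-LIPG libraries, and ENG was the 1 of them that was lower in every Si-LIPG library. The 7 adipocyte markers were near the limit of detection (summed CPM 16.1 to 41.4), with ADIPOQ, the adipokine of mature fat cells, above 0 in 1 library. Endothelial markers summed to a CPM of 0 to 7.2 and leukocyte markers to 21.2 to 48.6, and CDH5, KDR, TEK and PTPRC were at 0 in all libraries. Skeletal muscle lineage markers summed to a CPM of 410 to 500, with DES, the muscle intermediate filament, at counts of 72 to 238. In CPM, MYOD1 and PAX7 were higher in every Si-LIPG library, as were 15.2% of all tested genes, and the other listed markers of this lineage overlapped. MYOD1 had a CPM of 22.7, 18.0 and 22.1 against 31.6, 57.85 and 26.3. PAX7 had only 0, 0 and 4 counts in the NC libraries against 8, 12 and 22 in the Si-LIPG libraries. The 8 markers of smooth muscle cells or pericytes, which share the contractile program described here, summed to a CPM of 2306 to 4792 in the NC libraries and 1267 to 1980 in the Si-LIPG libraries, mostly MYH11. The other 7 summed to 687.4, 607.0 and 487.0 against 617.2, 635.5 and 548.6, with overlap. LMOD1 was lower and CSPG4 higher in every Si-LIPG library, and RGS5, a pericyte gene, was at 0 in all. In such bulk samples fewer cells of a type and less RNA per cell cannot be told apart.

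Some of the actin genes had high FPKM values in these libraries, and others had low ones. The median rank of the 33 genes among all genes by FPKM ran from 430 in Si-LIPG 3 to 1094 in NC 1. FPKM values, in which the authors took account of gene length and library size, allow genes to be set side by side. The mean over all 6 libraries ran from 3.48 for MRTFB to 2751 for ACTA2. The 3 with the highest were ACTA2, TPM1 and TAGLN, which together made up between 47.4% and 51.2% of the summed FPKM of the 33 genes in each library.

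ACTA2 (ENSCHIG00000017779), the smooth muscle alpha-actin that also marks myofibroblasts, had an FPKM of 1144, 2638 and 2771 in NC 1, 2 and 3 and of 3305, 3345 and 3305 in Si-LIPG 1, 2 and 3. TPM1 (ENSCHIG00000020204), the tropomyosin that winds along the filament, had 1315, 2456 and 2525 in the NC libraries against 2899, 3124 and 2937 in the Si-LIPG libraries. TAGLN (ENSCHIG00000014769), the filament binding protein transgelin or SM22, had 1264, 2146 and 2434 in the NC libraries against 2679, 3153 and 3044 in the Si-LIPG libraries. In all 3 genes NC 1 was lowest and the groups did not overlap in FPKM. NC 1 had the lowest FPKM of the 6 libraries in 29 of the 33 genes. The share of all genes lowest in NC 1, or without overlap, was not taken in FPKM. In CPM after TMM, NC 1 was lowest in 20 of the 33 genes, beside 35.5% of all tested genes.

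Among all genes of a library, ACTA2 ranked 25 to 29 by FPKM in the 5 libraries other than NC 1 and 73 in NC 1. Of the 33 genes, 7 or 8 were among the top 100 in the other 5 libraries, and 3 in NC 1. The order of the 33 genes was nearly the same in every library, with a Spearman correlation of log2 FPKM between 0.951 and 0.997 over the 15 pairs of libraries, which share gene lengths. SRF and its coactivators lay far below the actins. SRF had a mean FPKM of 19.5, MRTFA of 23.9 and MRTFB of 3.48, and the actin with the lowest FPKM, ACTG2, had 309.

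**Figure D1:**
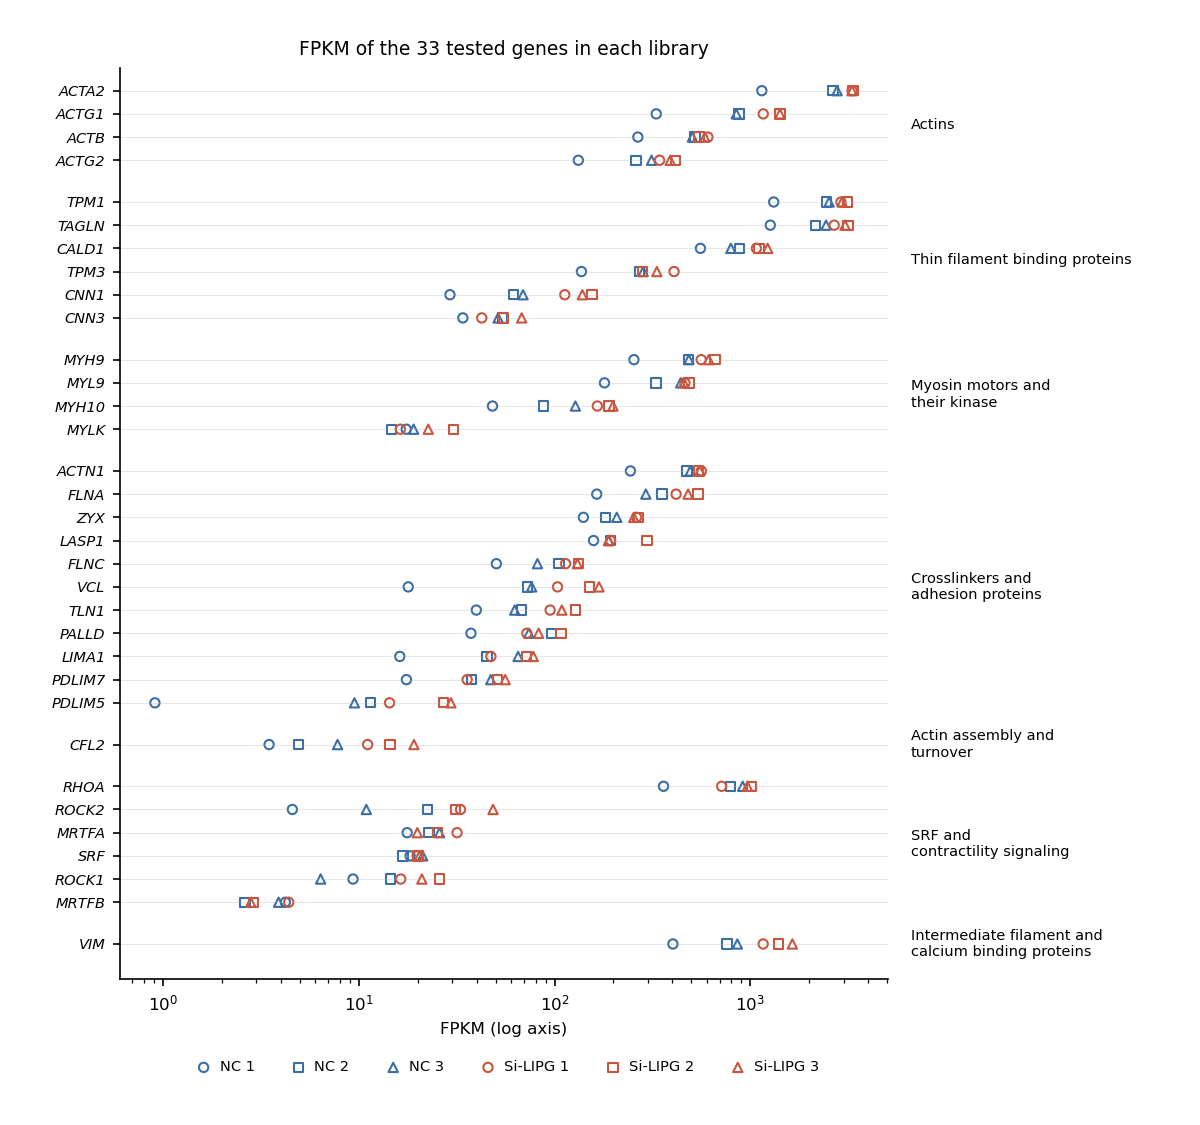
FPKM (log axis) of the 33 tested actin cytoskeleton and contractile genes in each of the 6 libraries, by role. Blue symbols are NC and red symbols Si-LIPG libraries, and the shape gives the replicate. NC 1 (blue circle) is the lowest symbol in 29 of the 33 genes, and the genes span 3.48 (MRTFB) to 2751 (ACTA2) in mean FPKM. The share of all genes lowest in NC 1 in FPKM was not taken.

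The reads that fell on these genes separated the groups without overlap on 2 scales and overlapped on another. The 35 listed genes took 1.54%, 3.08% and 3.12% of the reads counted on genes in NC 1, 2 and 3 and 3.86%, 4.38% and 4.38% in Si-LIPG 1, 2 and 3. Every Si-LIPG library was above every NC library, and NC 1 was lowest. The NC mean was 2.58% ± 0.905 (SD, n = 3) and the Si-LIPG mean 4.21% ± 0.297 (SD, n = 3), 1.63 times as high. The two-sided exact permutation test gave p = 0.1, which is as low as a design of 3 against 3 can reach. Without NC 1 the ratio was 1.36.

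Relative to all reads in the files, aligned to a gene or not, the same genes had an RPM of 153, 435 and 477 in the NC libraries against 696, 1152 and 1262 in the Si-LIPG libraries, a ratio of the means of 2.92 (exact permutation test, p = 0.1) and of 2.27 without NC 1. On that scale the median log2 fold change was 1.58 over all tested genes and 1.43 over the 33 genes. Of all tested genes, 51.9% were higher in every Si-LIPG library in RPM. After TMM scaling the groups overlapped. The summed CPM was 26111, 33379 and 34632 in the NC libraries against 37684, 35050 and 33588 in the Si-LIPG libraries, a ratio of the means of 1.13 (exact permutation test, p = 0.2). TMM scaling takes most genes as unchanged, and its factors were higher in each Si-LIPG library than in each NC library, as was the share of reads counted on genes.

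**Figure D2:**
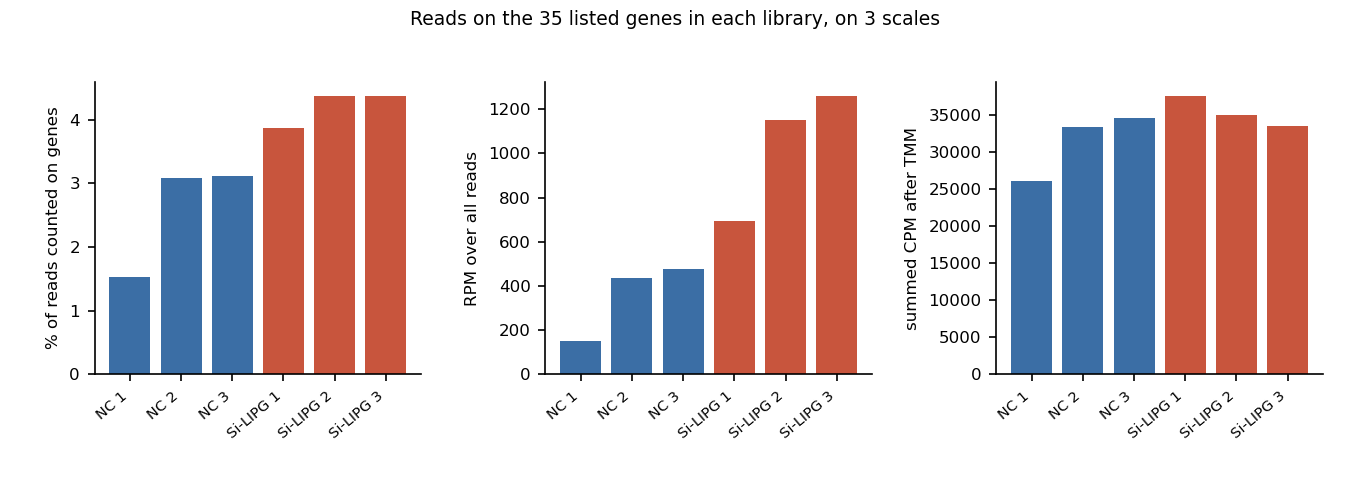
Reads on the 35 listed actin cytoskeleton and contractile genes in each library (bars, from 0), as a percent of the reads counted on genes, as RPM over all reads and as summed CPM after TMM. The Si-LIPG bars (red) are above all NC bars (blue) in the first 2 panels, and the third panel shows overlap, with NC 1 lowest at 26111. Of all tested genes, 51.9% were also higher in every Si-LIPG library in RPM over all reads.

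For the comparison of Si-LIPG with NC, counts were fitted by edgeR's quasi-likelihood test over all 6574 tested genes, and log2 fold changes are Si-LIPG over NC. None of the 33 genes had an adjusted p under 0.05, where 6.51% of all tested genes did. DESeq2 also gave 0, against 8.08% of its genes, and limma on FPKM called no gene at all. With at least 10 counts required in every sample, edgeR gave 3 (CNN1, ROCK2 and VCL) of 31, against 25.9%. The criterion of the study, an unadjusted p under 0.05 with a fold change over 1.5, was met by 4 genes (12.1%), all higher in Si-LIPG, against 20.7% of all tested genes (7.83% higher and 12.9% lower). The balance over all tested genes turned with the scaling, to 24.2% higher and 6.01% lower with library sizes alone and to 46.1% higher and 0.0304% lower when scaled to all reads. The 4 genes were CNN1, VCL, PDLIM5 and ROCK2. The count rested on single libraries, and it was 1 (ROCK2) without Si-LIPG 2, against 13.2% of all genes then tested, and 1 (CNN1) without Si-LIPG 3, against 13.1%. With the share of reads counted on genes as a covariate it was 0, against 2.84%. That share was higher in each Si-LIPG library than in each NC library, so this fit could hardly tell it apart from the groups. The fit gave none of the 6574 genes an adjusted p under 0.05. The same limit holds for each log2 fold change given with this covariate.

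The log2 fold changes of the 33 genes ran from -0.69 (MRTFB) to 1.19 (PDLIM5) with a median of 0.06, beside a median of 0.16 over all tested genes, and 20 of the 33 (60.6%) were above 0, beside 58.4% of all tested genes. The data were not precise enough to show that the other 29 genes did not change. Their 95% intervals included 0, the median standard error was 0.32, and the interval lay within 1 log2 unit of 0 for 19 of the 33 genes. In CPM after TMM, 10 genes (30.3%) were higher in every Si-LIPG library than in every NC library and 1 (3.03%) lower, where 15.2% and 13.4% of all tested genes were. NC 1 was the lowest of the 6 libraries in 20 of the 33 genes, and in 35.5% of all tested genes.

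Among the actins, none met the criterion and the log2 fold changes ran from -0.09 to 0.45. ACTG1 (ENSCHIG00000026676), the cytoplasmic gamma-actin, had a CPM of 1676, 2823 and 2800 in the NC libraries against 3383, 3384 and 3237 in the Si-LIPG libraries. The groups did not overlap, and NC 1 lay far below the other 5 libraries. The log2 fold change was 0.45 (SE 0.34, edgeR adjusted p = 0.498), and 0.23 without NC 1.

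ACTB (ENSCHIG00000013316), the cytoplasmic beta-actin whose protein is a common loading control, had a CPM of 2026, 2525 and 2507 in the NC libraries against 2648, 1953 and 2012 in the Si-LIPG libraries. The groups overlapped, with Si-LIPG 2 lowest and Si-LIPG 1 highest. Its log2 fold change was -0.09 (95% interval -0.78 to 0.59) after TMM but 1.25 when scaled to all reads. ACTA2 had a CPM of 3969, 5832 and 6266 in the NC libraries against 6576, 5459 and 5174 in the Si-LIPG libraries. It overlapped too, and its log2 fold change of 0.10 (95% interval -0.64 to 0.84) turned to -0.09 without NC 1. ACTG2, the smooth muscle gamma-actin, had a log2 fold change of 0.18.

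Among the thin filament binding proteins, CNN1 (ENSCHIG00000019758) stood highest. It encodes calponin-1, a smooth muscle protein that binds actin and restrains the myosin ATPase. Its CPM was 136, 184 and 209.6 in the NC libraries against 301, 339.8 and 291 in the Si-LIPG libraries. Every Si-LIPG library was above every NC library, by more than the range within either group. The mean CPM was 176 ± 37.2 (SD, n = 3) and 311 ± 25.5 (SD, n = 3), with a log2 fold change of 0.81 (SE 0.31, 95% interval 0.16 to 1.46, edgeR adjusted p = 0.134), and 0.46 with the share of counted reads as a covariate.

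The more abundant genes of this group lay near 0. TAGLN, with a log2 fold change of 0.06 (95% interval -0.59 to 0.71), TPM1, with -0.02 (95% interval -0.69 to 0.65), TPM3, with 0.06, and CALD1, which encodes caldesmon, with 0.05, all overlapped between the groups. TPM1 was above 0 with library sizes alone (0.53). CNN3, the acidic calponin of non-muscle cells, was the 1 gene of the 33 that was lower in every Si-LIPG library. Its CPM was 110.2, 112 and 109 in the NC libraries against 79, 83.9 and 99.3 in the Si-LIPG libraries, and its log2 fold change of -0.33 (SE 0.32, edgeR adjusted p = 0.629) became 1.14 when scaled to all reads.

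Among the myosins, MYH10 (ENSCHIG00000018616), the heavy chain of non-muscle myosin IIB, was higher in every Si-LIPG library. Its CPM was 486, 564 and 840.0 in the NC libraries against 957, 899 and 905 in the Si-LIPG libraries, with NC 3 close to the Si-LIPG range. The log2 fold change was 0.54 (SE 0.32, edgeR adjusted p = 0.363). MYH9, the heavy chain of non-muscle myosin IIA and the more abundant of the pair in FPKM, had a log2 fold change of 0.05 (95% interval -0.63 to 0.73), and MYL9, a regulatory light chain, had 0.04 (95% interval -0.62 to 0.71). MYLK, the kinase that phosphorylates that light chain, had -0.19, and all 3 overlapped between the groups.

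Of the 11 tested crosslinkers and adhesion proteins, 6 had log2 fold changes above 0 and 5 below, and VCL and PDLIM5 met the criterion. VCL (ENSCHIG00000000321) encodes vinculin, which ties actin to talin at focal adhesions. Its CPM was 104, 268 and 288 in the NC libraries against 344, 412 and 441 in the Si-LIPG libraries. The groups did not overlap, and NC 1 was far below the other NC libraries. The mean CPM was 220.2 ± 101 (SD, n = 3) and 399 ± 49.8 (SD, n = 3), and the log2 fold change of 0.84 (SE 0.37, 95% interval 0.06 to 1.62, edgeR adjusted p = 0.199) was 0.50 without NC 1 and turned to -0.15 with the share of counted reads as a covariate.

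PDLIM5 (ENSCHIG00000008891) encodes a PDZ and LIM domain scaffold that binds alpha-actinin. It had 4, 58 and 56 counts in the NC libraries against 104, 223 and 260 counts in the Si-LIPG libraries, or a CPM of 13.0, 105 and 88.2 and of 117, 182 and 189.9. NC 1 held nearly no reads on it, whereas Si-LIPG 1 lay close to NC 2. Its log2 fold change was the largest of the 33 genes at 1.19 (SE 0.49, 95% interval 0.16 to 2.23, edgeR adjusted p = 0.165) and was 0.74 without NC 1. It turned to -0.36 with the share of counted reads as a covariate.

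TLN1, which encodes talin-1, the partner of vinculin and of integrins, had a CPM of 525, 569 and 537 in the NC libraries against 718, 792 and 648 in the Si-LIPG libraries. The groups did not overlap, and here NC 1 lay with the other NC libraries. Its log2 fold change was 0.40 (SE 0.29, edgeR adjusted p = 0.489). FLNA, the filamin that crosslinks actin into networks, had 0.29 (95% interval -0.40 to 0.98), and ACTN1, the alpha-actinin of stress fibres, had -0.07 (95% interval -0.74 to 0.59). The other crosslinkers and adhesion proteins ran from -0.26 (LASP1) to 0.13 (FLNC), and all of them overlapped between the groups.

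Of the genes of actin assembly and turnover, CFL2 alone could be tested. It encodes cofilin-2, the muscle form of the protein that severs filaments. Its counts were low, 8, 13 and 24 in the NC libraries against 42, 62 and 88 in the Si-LIPG libraries, or a CPM of 25.9, 23.4 and 37.8 and of 47.4, 50.5 and 64.3. The groups did not overlap, and the log2 fold change was 0.88 (SE 0.44, 95% interval -0.06 to 1.82, edgeR adjusted p = 0.279).

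The 6 genes of SRF and contractility signaling fell on both sides of 0. ROCK2 (ENSCHIG00000013173), a kinase that promotes contraction, had a CPM of 32.4, 101 and 50.4 in the NC libraries against 134, 104 and 155 in the Si-LIPG libraries. The groups did not overlap, but NC 2 at 101 and Si-LIPG 2 at 104 nearly met, and the counts were 10, 56 and 32 against 119, 127 and 212. The log2 fold change was 1.06 (SE 0.41, 95% interval 0.19 to 1.93, edgeR adjusted p = 0.141). It was 0.78 without NC 1, 1.62 without NC 2 and 0.61 with the covariate. ROCK2 did not meet the criterion without NC 3, without Si-LIPG 1 or without Si-LIPG 3. ROCK1 had a log2 fold change of 0.47 (SE 0.37) and no overlap, and RHOA had -0.15 (95% interval -0.80 to 0.51) with overlap.

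The transcription factor and its coactivators lay below 0 after TMM and above 0 when scaled to all reads, and SRF (0.12) and MRTFA (0.23) also with library sizes alone. SRF (ENSCHIG00000012065) had a CPM of 123, 72.0 and 93.0 in the NC libraries against 76.7, 63.6 and 62.1 in the Si-LIPG libraries. The highest value was that of NC 1, and NC 2 lay below Si-LIPG 1. The log2 fold change was -0.50 (SE 0.36, edgeR adjusted p = 0.481), and 0.99 when scaled to all reads. MRTFA (ENSCHIG00000016119) had a log2 fold change of -0.33 (95% interval -1.15 to 0.48), with CPM values of 87.5, 72.0 and 83.5 against 90.3, 58.7 and 44.6 in the same order. MRTFB (ENSCHIG00000018957) had only 15 to 36 counts per library. Its CPM was 68.1, 27.0 and 41.0 in the NC libraries against 40.6, 22.0 and 20.4 in the Si-LIPG libraries, and its log2 fold change of -0.69 (95% interval -1.80 to 0.42) was the least precise of the 33, with an SE of 0.52.

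Beside the actin genes, the list held vimentin, the main intermediate filament of mesenchymal cells. VIM (ENSCHIG00000020459) had a CPM of 2497, 3004 and 3470 in the NC libraries against 4135, 4078 and 4587 in the Si-LIPG libraries. Every Si-LIPG library was above every NC library. The mean CPM was 2990 ± 487 (SD, n = 3) and 4267 ± 279 (SD, n = 3), with a log2 fold change of 0.51 (SE 0.33, edgeR adjusted p = 0.416).

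**Figure D3:**
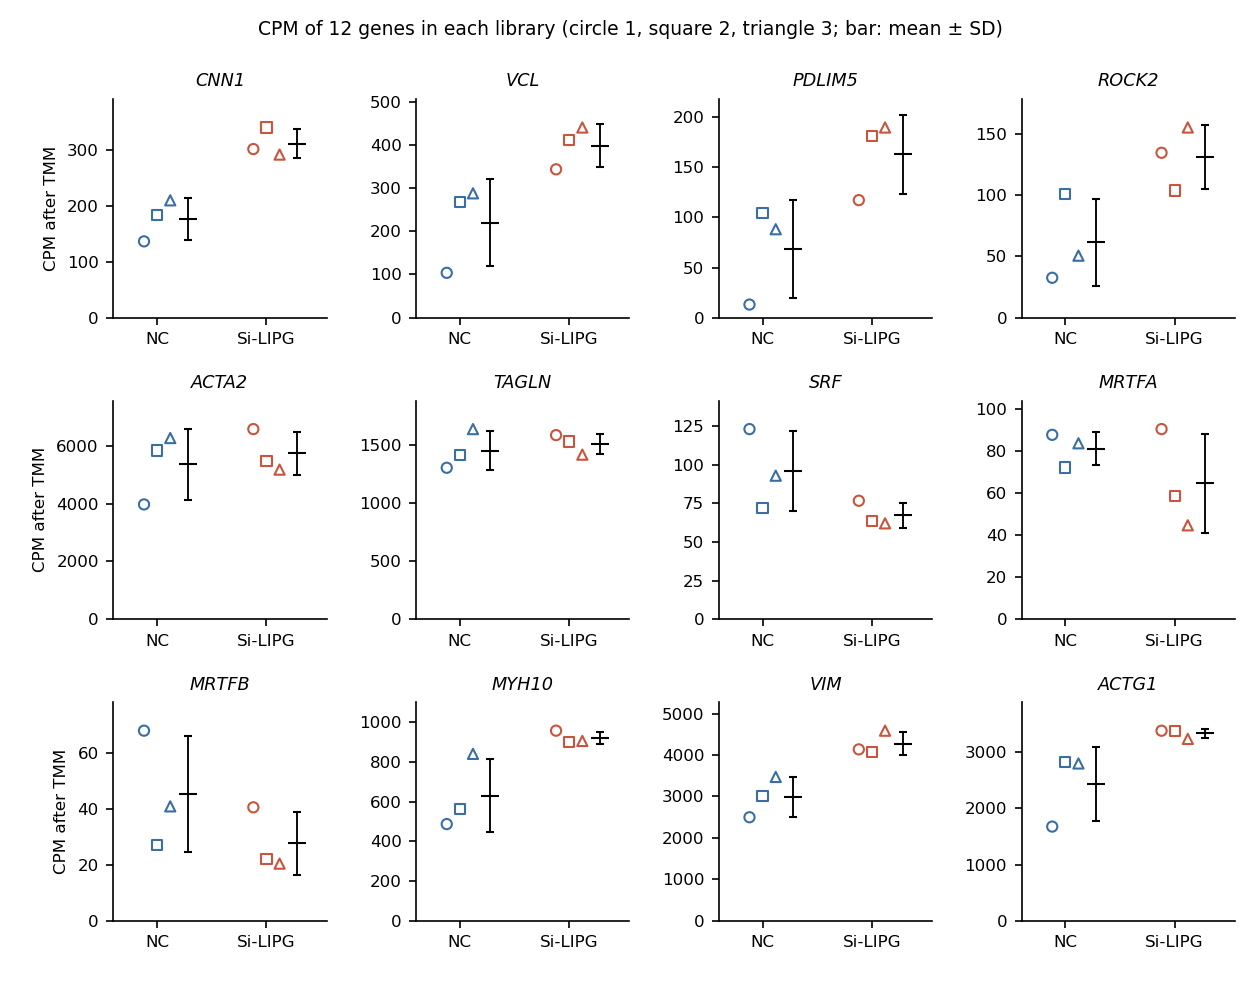
CPM after TMM (axis from 0) of 12 of the actin cytoskeleton and contractile genes in each NC (blue) and Si-LIPG (red) library, with the mean and SD of each group beside the points. CNN1, VCL, PDLIM5, ROCK2, MYH10, VIM and ACTG1 do not overlap between the groups, and ACTA2, TAGLN, SRF, MRTFA and MRTFB do.

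The side of 0 on which the genes lay depended on the scaling. With all reads in the files as the library size, all 33 genes had log2 fold changes above 0, from 0.76 (MRTFB) to 2.53 (PDLIM5) with a median of 1.43, and 18 (54.5%) had an edgeR adjusted p under 0.05, against 11.4% of all tested genes. The median of all tested genes was 1.58 on that scale, and 22 of the 33 genes lay under it. The criterion was met by 29 genes (87.9%), against 46.1% of all tested genes. The tested genes set beside the 33 were not matched to them in counts, on which the precision of a fold change depends. Every Si-LIPG library was above every NC library in 28 of the 33 genes (84.8%), and in 51.9% of all tested genes, and none was lower, as 1.17% of all tested genes were. The share of reads counted on genes itself was higher in each Si-LIPG library, and its part in these values was not tested.

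A change of library sizes moves every gene by nearly the same amount. The order of the 33 genes was therefore bound to be much the same on both scales, and it adds nothing to the result. PDLIM5, ROCK2, CFL2, VCL and CNN1 had the 5 largest log2 fold changes on each, and MRTFB, SRF and MRTFA were the 3 lowest when scaled to all reads. CNN1 had a log2 fold change of 2.19 (adjusted p = 0.0462), VCL of 2.17 (adjusted p = 0.0495) and ROCK2 of 2.41 (adjusted p = 0.0476) when scaled to all reads by edgeR, while PDLIM5, at 2.53, had an adjusted p of 0.0569.

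**Figure D4:**
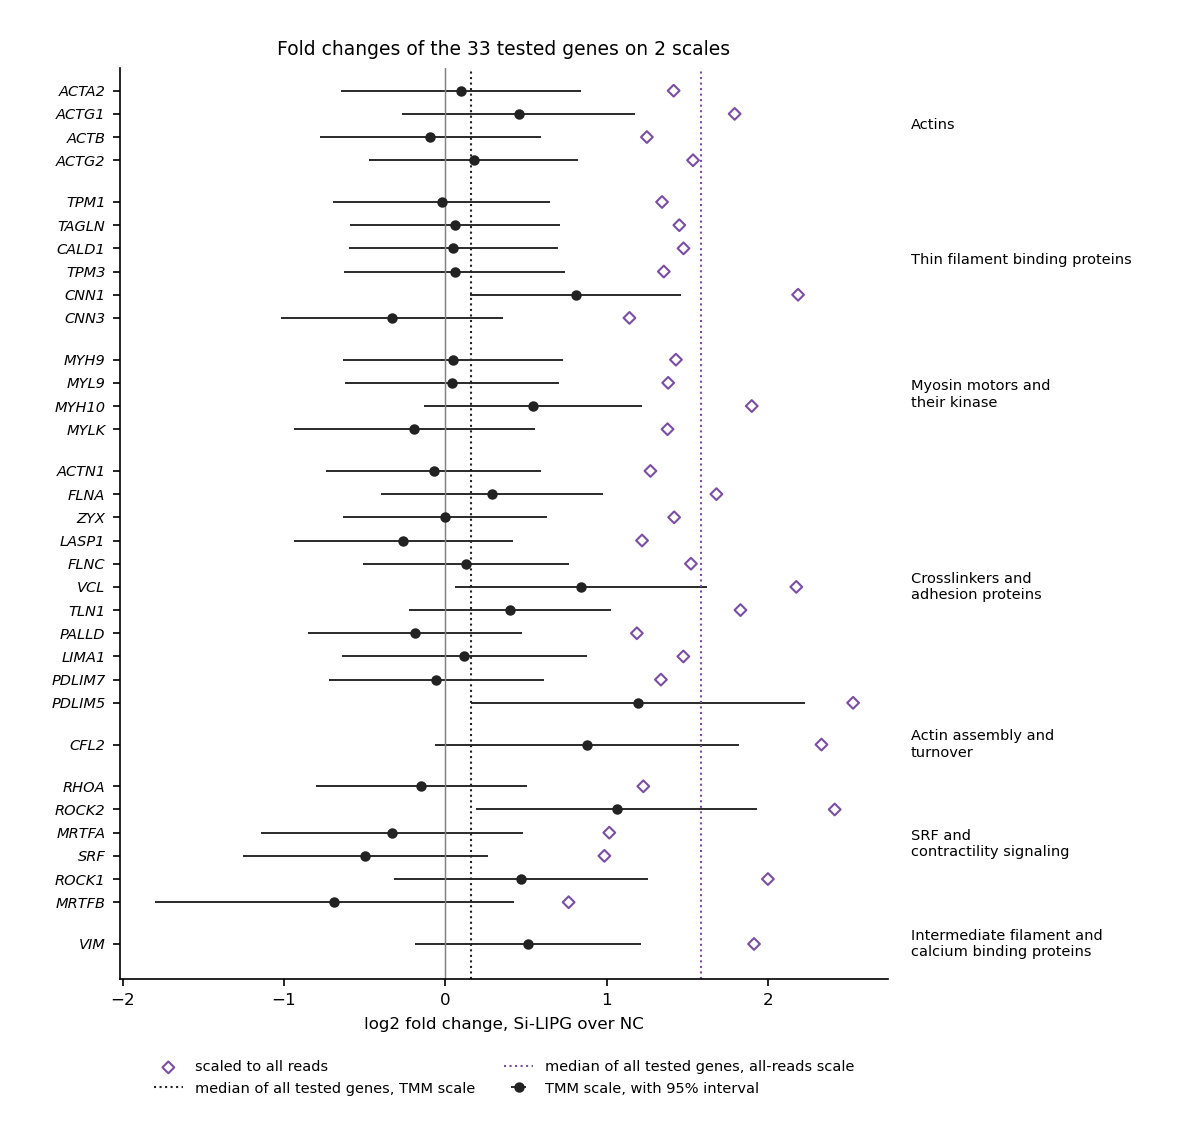
Log2 fold changes of the 33 tested genes (x axis, Si-LIPG over NC) by role, after TMM with their 95% intervals (black points) and scaled to all reads (open diamonds). The intervals after TMM exclude 0 for CNN1, VCL, PDLIM5 and ROCK2, and the dotted lines mark the medians of all tested genes, 0.16 and 1.58.

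To set the genes against each other without a scale from genes outside the list, each FPKM was divided by the summed FPKM of the 33 genes in its library. The shares of the 33 genes have a fixed sum, so a higher share of some lowers the share of others. On this measure 8 genes (24.2%) were higher in every Si-LIPG library and 3 (9.09%) lower, where 12.3% and 14.8% of all tested genes, divided by the same sum, were. The 8 were ACTG1, CNN1, MYH10, VCL, PDLIM5, CFL2, ROCK2 and VIM, and the 3 were TPM1, ACTN1 and SRF. VIM took 5.42%, 5.29% and 5.68% of the summed FPKM in the NC libraries against 6.54%, 7.05% and 8.36% in the Si-LIPG libraries, and NC 1 did not stand apart. TPM1 took 17.7%, 17.1% and 16.7% in the NC libraries against 16.3%, 15.8% and 15.0% in the Si-LIPG libraries. ACTA2 took 15.4%, 18.4% and 18.3% against 18.6%, 16.9% and 16.9%, with overlap.

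SRF took 0.247%, 0.117% and 0.140% of the summed FPKM in the NC libraries against 0.112%, 0.101% and 0.104% in the Si-LIPG libraries and NC 1 was far above the other 5 libraries. Genes that were relatively low in NC 1 tended to have the larger log2 fold changes. Across the 33 genes, the Spearman correlation of the log2 fold change with the CPM of NC 1 over the mean of NC 2 and NC 3 was -0.54, a description of points that share the NC 1 library in both measures. The correlation with gene length was 0.24 and with mean FPKM 0.02.

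A further list of 93 genes of the same pathway held other subunits, nucleators, myosins, linkers and SRF targets, of which 81 were listed by name and 75 tested. Their median log2 fold change was 0.18, beside 0.16 over all tested genes, and 54 of the 75 were above 0, beside 58.4% of all tested genes. None was higher with an edgeR adjusted p under 0.05, beside 0.974% of all tested genes, and 2 were lower, beside 5.54%. At the criterion of the study, 7 of the 75 were higher and 3 lower, beside 7.83% and 12.9% of all tested genes. By group, the median log2 fold change ran from 0.08 in the other myosins and bundlers to 0.45 in the Arp2/3, capping and turnover genes, and it was 0.32 in the targets or partners of SRF, MRTF and YAP.

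The 2 lower genes were MYH11 and TLN2. MYH11 (ENSCHIG00000010603), the smooth muscle myosin heavy chain, had nearly the same count in each library, 1266, 1001 and 1154 in the NC libraries against 1208, 932 and 983 in the Si-LIPG libraries. Its CPM after TMM was 4105, 1803 and 1819 against 1363, 759 and 718, without overlap. The log2 fold change was -1.44 (SE 0.41, edgeR adjusted p = 0.0485) after TMM, with an adjusted p of 0.132 without NC 1, 0.0672 without NC 2, 0.291 without Si-LIPG 2 and 0.286 without Si-LIPG 3, and it was 0.09 when scaled to all reads and 0.12 with the share of counted reads as a covariate. In RefSeq, NDE1 lies within 1 kb of it.

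TLN2 (ENSCHIG00000021342), which encodes talin-2, had 30, 82 and 27 counts in the NC libraries against 38, 26 and 26 in the Si-LIPG libraries. In CPM the groups overlapped, since NC 3 at 42.6 lay just under Si-LIPG 1 at 42.9. The log2 fold change was -1.80 (SE 0.50, edgeR adjusted p = 0.0452), with an adjusted p of 0.101 without NC 1, 0.201 without NC 2, 0.243 without Si-LIPG 2 and 0.255 without Si-LIPG 3, and it was -0.48 (adjusted p = 0.550) when scaled to all reads. In RefSeq, LOC102170702, MIR190A and TRNAC-GCA overlap it, and their reads could not be told apart from its own. The lower sum of the smooth muscle or pericyte markers in each Si-LIPG library after TMM was carried by MYH11. The summed CPM of the other 7 overlapped between the groups, with LMOD1 lower and CSPG4 higher in every Si-LIPG library. CNN1, another gene of smooth muscle, had a higher CPM in every Si-LIPG library, whereas ACTA2, TAGLN and ACTG2 overlapped between the groups. Whether other cells had a part in these values was not tested.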

How the data were processed

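RNA-seq libraries of goat intramuscular preadipocytes (3 NC and 3 Si-LIPG, grouped by their titles) were analysed. The authors deposited counts per gene for each library, with 5 further rows for reads on no gene, and a table of FPKM values of the same genes, with a name for 18989 of them. FPKM over counts gave the gene lengths. Per the labels, the submitters' processing notes name fastp, HISAT2, SAMtools and HTSeq. Versions, genome build, filters and strand setting were not given in the sources used here. Rows naming no gene were 97.1% to 99.0% of the reads and entered neither library sizes nor tests, except in the scaling to all reads.

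Genes were chosen, and the pathway and marker lists written, with earlier results of these data known. Counts were tested in R 4.3.3 by edgeR 4.0.16 (filterByExpr, TMM, quasi-likelihood test, no covariates, Benjamini-Hochberg adjustment over 6574 genes). The common biological coefficient of variation was 40.5%. Replicates were not copies of each other (chi-square over degrees of freedom 4.21 to 12.5). The limit for a count of 0 was 3 counts, a CPM of 2.19 to 9.73 after TMM. The study names DESeq2 (1.42.0 here), which was an alternative, as were other scalings, filters, limma 3.58.1 on log2 FPKM with pseudocounts of 1 and 0.1, a replicate block and leaving out each library. Scaling to the members' own sum was added after seeing the data. The procedure was tested on simulated data.

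Named were genes with an adjusted p under 0.05, the 2 most abundant tested genes of each role by mean FPKM, ACTB, ACTA2, SRF, MRTFA and MRTFB, and the called genes of the wider list. Other genes were named after their values were seen, among them CNN1, VCL, PDLIM5, MYH10, TLN1, CNN3 and ROCK1. No sequences are shown, since gene sequences were not used here.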

Additional observations from a re-analysis of the deposited data

Results flagged for a closer look

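A row outside the comparison carried reads. ENSCHIG00000008194, which has no gene symbol and is described in the files as profilin-1 of another species, a protein that feeds actin monomers to growing filaments, had 0, 6 and 0 counts in the NC libraries against 16, 21 and 30 in the Si-LIPG libraries. Its mean CPM after TMM in the Si-LIPG groups was 19.0. It was picked out because PFN1 was not listed by name and the counts in every Si-LIPG library exceeded 3, the limit that a count of 0 allows, as well as every NC library. The difference was not tested, and whether the row is the goat PFN1 gene or a copy of it could not be told from its description.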

How the results depend on the processing

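Among the tested genes of the list, CFL2, MRTFA, MRTFB, ROCK2, PDLIM5 and LIMA1 had under 30 counts in at least 1 NC library. So did TLN2, a called gene of the wider list. Of 376 log2 fold changes of 21 named genes under the alternatives, 275 kept their direction and their side of the adjusted threshold, 20 passed it, 18 (MYH11 and TLN2) no longer did and 63 changed sign. The causes were not tested.

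No gene of the 33 had an adjusted p under 0.05 in the reported comparison, against 18 scaled to all reads, 3 where every sample had at least 10 counts and 1 (PDLIM5) with no filter, beside 6.51%, 11.4%, 25.9% and 4.2% of all genes tested. Genes at the criterion of the study numbered 4 (20.7% of all genes tested), against 13 with library sizes alone (30.2%), 29 scaled to all reads (46.1%), 7 of 31 with at least 10 counts (38.7%), 0 with a covariate for the share of counted reads (2.84%), 11 and 10 by limma with pseudocounts of 1 and 0.1 (29.1% and 25.4%), 2 with a fold change over 2 (18.8%) and 1 to 5 without 1 library (13.1% to 22%). The median log2 fold change of 0.06 was 0.62 with library sizes alone, 1.43 scaled to all reads, 0.31 with at least 10 counts, 0.65 and 0.65 by limma with 1 and 0.1, -0.12 scaled to the genes' own sum (added after seeing the data) and -0.05 to 0.16 without 1 library. The median of all tested genes moved too, from 0.16 to 0.74 with library sizes alone.

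A replicate block gave 7 genes with an adjusted p under 0.05 (ACTG1, CNN1, MYH10, PDLIM5, ROCK2, VCL and VIM), beside 14.1% of all tested genes. Same-numbered libraries deviated together with correlations of 0.21, 0.064 and 0.11, and NC 2 correlated best with Si-LIPG 3 (0.089), so the numbers were not taken as pairs.

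Of all 33 genes, 20 were above 0 in the reported comparison, 32 with library sizes alone and 33 scaled to all reads. Listed next are only the log2 fold changes that changed sign among the 21 genes counted above. With library sizes alone they were TPM1 0.53, ACTN1 0.47, RHOA 0.40, ACTB 0.45, SRF 0.12 and MRTFA 0.23. Scaled to all reads they were TPM1 1.34, ACTN1 1.27, RHOA 1.23, ACTB 1.25, SRF 0.99, MRTFA 1.02, MRTFB 0.76 and MYH11 0.086. With at least 10 counts they were TPM1 0.24, ACTN1 0.18, RHOA 0.11 and ACTB 0.16, with no filter TPM1 0.060 and ACTN1 0.0071, and with upper quartile factors TPM1 0.016. By limma with a pseudocount of 1 they were TPM1 0.57, ACTN1 0.52, RHOA 0.47, ACTB 0.49, SRF 0.10 and MRTFA 0.20, and with 0.1 TPM1 0.57, ACTN1 0.52, RHOA 0.47, ACTB 0.49, SRF 0.11 and MRTFA 0.20. The covariate could hardly be told apart from the groups. With it the values were ACTA2 -0.040, TAGLN -0.017, MYH9 -0.024, MYL9 -0.029, ACTB 0.021, SRF 0.085, MRTFA 0.41, MRTFB 0.64, MYH11 0.12, VCL -0.15 and PDLIM5 -0.36. Scaled to the genes' own sum they were ACTA2 -0.068, TAGLN -0.12, MYH9 -0.13 and MYL9 -0.12. Without 1 library, ACTA2 ran from -0.094 to 0.23, TPM1 from -0.16 to 0.073, TAGLN from -0.031 to 0.16, MYH9 from -0.059 to 0.13, MYL9 from -0.12 to 0.26, ACTN1 from -0.26 to 0.014 and RHOA from -0.34 to 0.023.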

Other observations

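The files described 8 rows without a symbol as proteins of 6 genes of the list that were not listed by name. Apart from the profilin-1 row, they held few reads. A row described as ARPC2, a subunit of the Arp2/3 complex that branches filaments, had 0, 8 and 3 counts in the NC libraries against 10, 17 and 11 in the Si-LIPG libraries, and a row described as calponin-2 had 8, 7 and 10 against 12, 0 and 3. Rows described as transgelin-2 and annexin A2 were at 0 in all libraries, and one described as the tropomyosin alpha-4 chain had at most 2 counts.

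Even numbers made up 57.1% to 62.7% of the counts of at least 10 in the 6 libraries.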
